A study of Mus musculus with 12 samples.

Results

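The genes described here are 47 mouse genes of DNA replication and deoxynucleotide synthesis. They run from the proteins that load the replicative helicase onto origins, through the polymerases and their clamp, to the enzymes that make DNA precursors and the checkpoint proteins that travel with the fork. They were chosen by name, but with earlier results of these data known. Of the 15371 genes with a value in the deposited RNA table, 44 were found under their current symbol and 3 (Orc2, Orc6 and Cdc45) by Entrez identifier under an older one. All 47 had a value in every library, and all 47 were among the 10991 genes compared. The RNA came from cultures labelled as heart muscle cells. They had been differentiated from CM7/1, a mouse embryonic stem cell line, carrying either Hey2 or Hey1 as an inducible gene. Hey1 and Hey2 are transcriptional repressors that act downstream of Notch. The 4 groups were induced and uninduced Hey2-line cells and induced and uninduced Hey1-line cells, with 1 library in each. Induction was 1000 ng/ml doxycycline for 48 h, the uninduced cells are the controls, and doxycycline-treated cells without a transgene were not analysed here. Whether a line is 1 clone, and which promoter drives the transgene, is not given in the sources used here.

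A cell copies its genome once per division. In G1 the origin recognition complex, with Cdc6 and Cdt1, loads the ring of Mcm2 to Mcm7 onto DNA, and geminin later blocks Cdt1 so that origins are not loaded again. In S phase the kinase Cdc7 with its partner Dbf4 activates that ring together with Cdc45 and the GINS complex, polymerases alpha, delta and epsilon copy the strands on the clamp PCNA, and ribonucleotide reductase supplies the building blocks. Most of these genes are transcribed under E2F factors around the start of S phase. Heart muscle cells leave the cell cycle after birth, whereas embryonic stem cells divide quickly with a large share of cells in S phase.

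RPKM values scale a gene's reads to its length and to library depth, so levels can be compared between genes as well as between libraries. The steps between the listed values gave back whole reads that fit them. Depth, as the authors' scaling implies it, was 10.375 and 5.75 M reads in induced and uninduced Hey2-line cells, against 7.5 and 7.4 M in induced and uninduced Hey1-line cells. The 47 genes together held 23380 and 13950 reads in the induced and uninduced Hey2-line libraries, and 3885 and 4330 in the induced and uninduced Hey1-line libraries. With 1 library per group no fold has a replicate check. Each interval below is an exact 95% interval from these reads and covers counting error only. The induced genes checked the labels: Hey2 was listed at 6.59 RPKM in induced Hey2-line cells and was blank in uninduced ones, and Hey1 stood at 8.59 RPKM in induced and 0.735 RPKM in uninduced Hey1-line cells. In the RefSeq annotation 10 members overlap another coding gene (Mcm7, Cdc45, Gins2, Pold2, Pole2, Rfc4, Rpa1, Fen1, Lig1 and Tk1), and Topbp1, Pcna and Tyms have pseudogenes. How such reads were counted, and whether by strand, is not given in the sources used here, so these 13 are less certain. All 20 cardiomyocyte markers had a value in every library, but the lines stood far apart. Their summed level was 1592 RPKM in induced and 1541 RPKM in uninduced Hey2-line cells, against 28840 RPKM in induced and 28220 RPKM in uninduced Hey1-line cells, and 20 of 20 were lower in the Hey2 line in both pairs. Both lines carry the heart muscle label, but by these markers cardiomyocyte RNA was a far smaller share in the Hey2 line. The 12 pluripotency markers summed to 455 and 435 RPKM in induced and uninduced Hey2-line cells, against 39.5 and 49.7 RPKM in induced and uninduced Hey1-line cells, where Dppa4 was blank. The 7 fibroblast markers summed to 81.0 and 63.1 RPKM in induced and uninduced Hey2-line cells, against 37.4 and 43.3 RPKM in induced and uninduced Hey1-line cells, and the 4 blood markers were blank everywhere. The 6 yolk sac endoderm markers summed to 9.825 and 10.7 RPKM in induced and uninduced Hey2-line cells, against 45.2 and 61.7 RPKM in induced and uninduced Hey1-line cells, nearly all of it Afp there, while Sox17 was listed in the Hey2 line alone. The 4 smooth muscle markers summed to 171 and 138 RPKM in induced and uninduced Hey2-line cells, against 336 and 311 RPKM in induced and uninduced Hey1-line cells. The 5 neuronal markers summed to 7.01 and 6.73 RPKM in induced and uninduced Hey2-line cells, against 18.7 and 16.8 RPKM in induced and uninduced Hey1-line cells, mostly Tubb3, with Dcx blank everywhere. The 5 endothelial markers summed to 7.13 and 7.31 RPKM in induced and uninduced Hey2-line cells, against 2.67 and 2.69 RPKM in induced and uninduced Hey1-line cells, where Cdh5 was blank. These marker levels move with every difference between the lines given below, and their part in it was not tested.

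**Figure D1:**
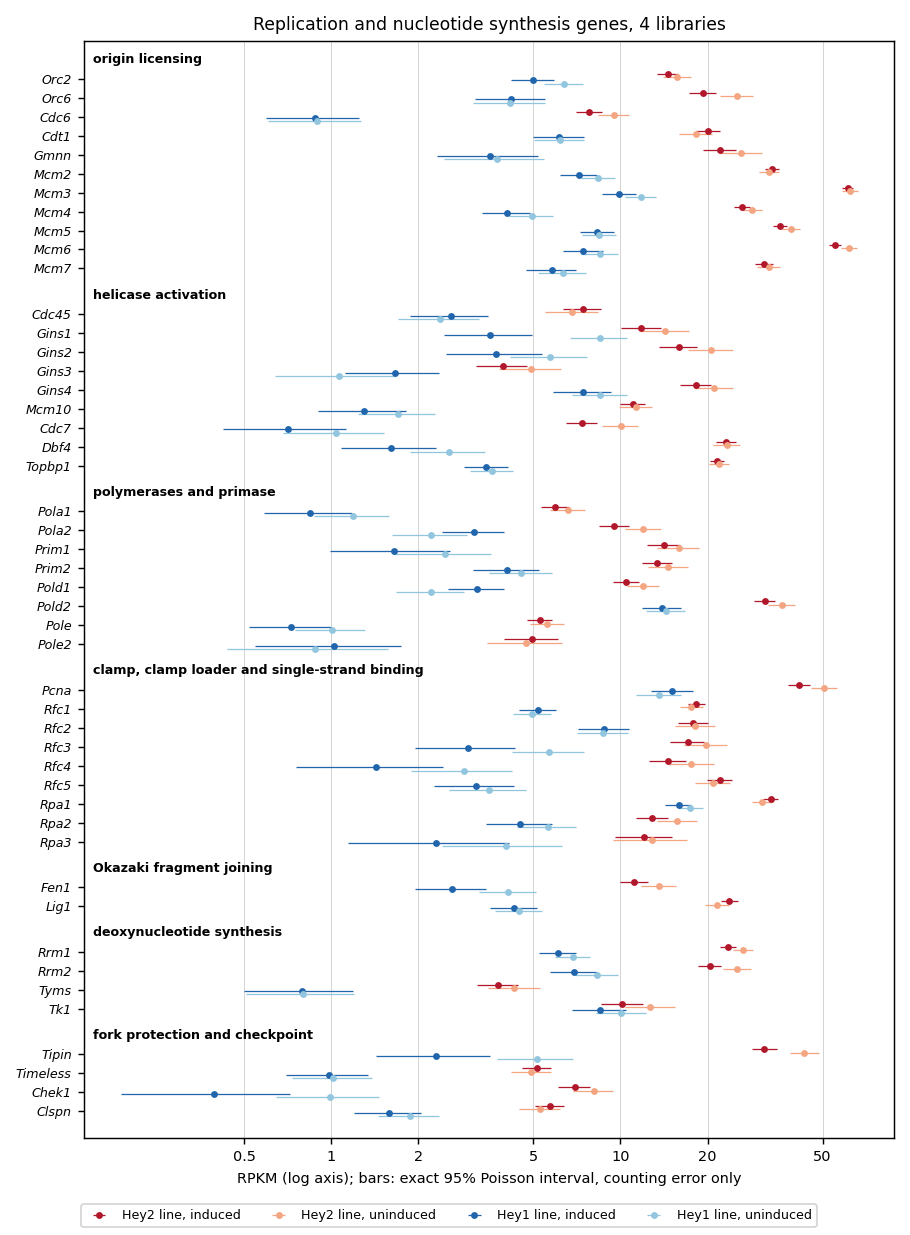
Level of each of the 47 genes in RPKM (log axis) in the 4 libraries, grouped by role. Points are single libraries, bars are exact 95% Poisson intervals, and red Hey2-line points lie to the right of blue Hey1-line points for every gene, with Tk1 the closest.

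Every one of the 47 genes had a higher level in Hey2-line cells than in Hey1-line cells, in the induced and in the uninduced pair of libraries, where 60.1% and 58% of all genes did. The median gene stood 4.64-fold higher in the induced pair and 4.83-fold higher in the uninduced pair. The genes with the largest ratios in the uninduced pair were Cdc6, Cdc7 and Dbf4, which load and switch on the helicase, and thymidine kinase Tk1 had the smallest. In the induced pair Chek1, Dbf4 and Tipin led and Tk1 was again last. Fewer cycling cells in the Hey1 line and less of each RNA per cell cannot be told apart in such bulk samples.

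The summed level of the 47 genes was 874 RPKM in induced and 962 RPKM in uninduced Hey2-line cells, against 211 RPKM in induced and 244 RPKM in uninduced Hey1-line cells. The median gene stood at 15.9 RPKM in induced and 17.6 RPKM in uninduced Hey2-line cells, and at 3.55 RPKM in induced and 4.46 RPKM in uninduced Hey1-line cells. Counted by size on the log2(RPKM + 1) scale, which understates the change of low genes, 44 of 47 stood 2-fold or more above the Hey1 line in the induced pair, where 22.8% of all genes were. In the uninduced pair 43 of 47 were, against 19.7% of all genes. No member was lower in the Hey2 line by that size, whereas 12.3% of all genes in the induced pair and 13.1% in the uninduced pair were. The 2-fold size was reached in both pairs by 42 of the 47, beside 17.5% of all genes. At 4-fold the counts were 18 in the induced pair and 20 in the uninduced pair, beside 4.63% and 3.62% of all genes. All genes here are the 10991 compared, which have a value in all 4 libraries. The libraries listed 15095 and 14177 genes in induced and uninduced Hey2-line cells, against 12198 and 12311 in induced and uninduced Hey1-line cells. Genes blank in the Hey1 line are thus outside these shares.

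The median difference of the members on that scale was 1.84 in the induced pair, against 0.27 over all genes, and 1.79 in the uninduced pair, against 0.20 over all genes. A scaling by median ratio moved the median of all genes to 0.00 in the induced pair and 0.01 in the uninduced pair. Under it the members' median was 1.56 in the induced pair and 1.58 in the uninduced pair, and only Tk1 changed sign, in the induced pair. The interval of the ratio lay above 1 for 46 members in each pair, beside 48.1% of all genes in the induced and 44.1% in the uninduced pair. The exception in both was Tk1. A limma fit with terms for line and induction, in which the 2 induction states stand in for replicates, called 46 of 47 members higher in the Hey2 line at an adjusted p of 0.05 and none lower, but it also called 46.8% of all genes higher and 29.6% lower. Over the 47 genes the differences in the 2 pairs of libraries had Pearson's r of 0.88 and Spearman's rho of 0.86, against 0.96 and 0.95 over all 10991 genes. Both pairs hold the same 2 lines, and genes are not independent of each other.

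**Figure D2:**
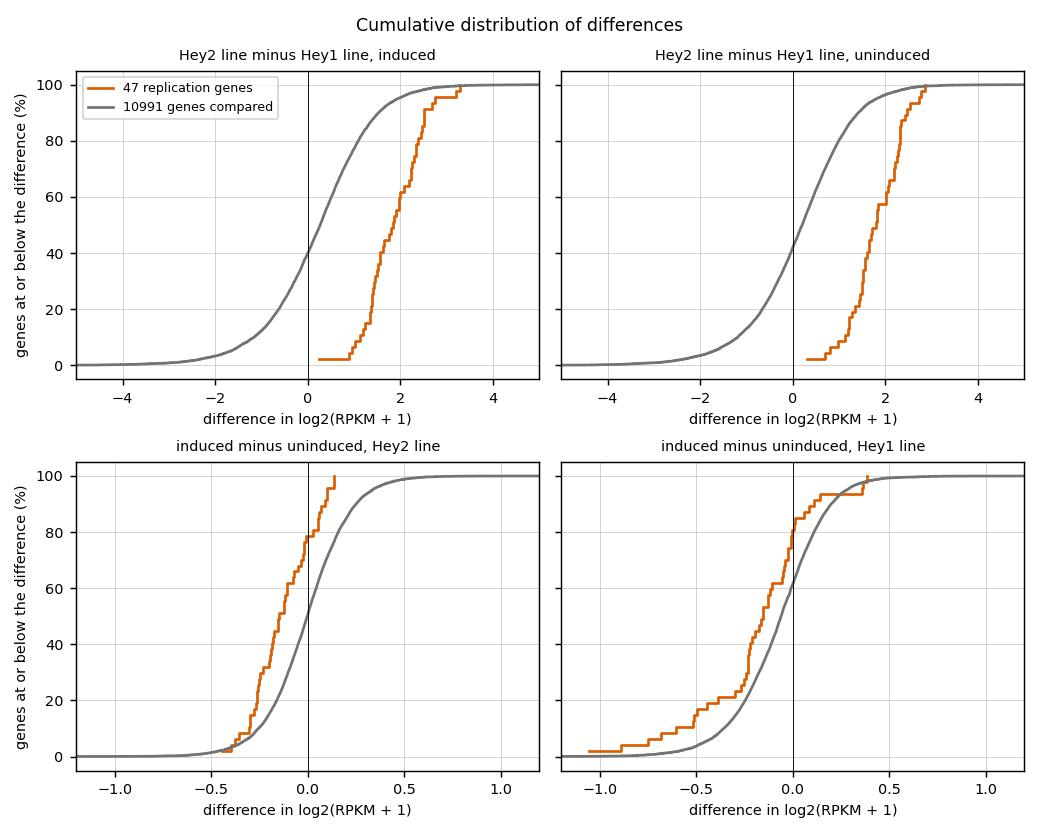
Cumulative share of genes (%) at or below a difference in log2(RPKM + 1), for the 47 replication genes (orange) and all 10991 genes compared (grey). In the upper panels (Hey2 line minus Hey1 line, induced left, uninduced right) the orange curve lies wholly above 0. In the lower panels (induced minus uninduced, Hey2 line left, Hey1 line right) it is shifted to the left of the grey curve by a small amount.

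Promoter sequences are shown because the members lay higher together in 1 line and E2F control of this gene class is textbook knowledge. RefSeq promoter windows, from 250 bases before to 50 after the annotated start on build GRCm38.p6, were at hand for 38 of the 47 genes, in 45 windows. The E2F-type words searched, on both strands, were TTTCCCGC, TTTCGCGC, TTTGCCGC and TTTGGCGC. At least 1 was found in 14 of 45 member windows (31.1%), in 14 different genes, against 744 of 32851 windows of all genes (2.26%). Among windows at least as GC-rich as the median member window the share was 4.14%. Stretches from 250 bases before to 30 after the start are printed for 5 members with a match and, for contrast, for Dbf4 and Tk1 (no match), whose line ratios lay near the top and at the bottom of the list. They come from Mcm6 (chr1:128359676-128359955, minus strand), Mcm5 (chr8:75109259-75109538, plus strand), Mcm3 (chr1:20820283-20820562, minus strand), Rfc3 (chr5:151651179-151651458, minus strand), Gins3 (chr8:95633309-95633588, plus strand), Dbf4 (chr5:8422687-8422966, minus strand) and Tk1 (chr11:117825985-117826264, minus strand). Each is written 5′ to 3′ on the strand of its gene, and capitals mark the E2F-type words, which overlap in Mcm6 and Mcm5.
Mcm6: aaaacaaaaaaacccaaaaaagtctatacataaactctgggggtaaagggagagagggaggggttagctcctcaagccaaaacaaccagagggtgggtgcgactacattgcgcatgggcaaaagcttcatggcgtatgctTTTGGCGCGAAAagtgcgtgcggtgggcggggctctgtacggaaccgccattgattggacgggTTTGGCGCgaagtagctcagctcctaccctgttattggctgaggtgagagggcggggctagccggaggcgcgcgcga
Mcm5: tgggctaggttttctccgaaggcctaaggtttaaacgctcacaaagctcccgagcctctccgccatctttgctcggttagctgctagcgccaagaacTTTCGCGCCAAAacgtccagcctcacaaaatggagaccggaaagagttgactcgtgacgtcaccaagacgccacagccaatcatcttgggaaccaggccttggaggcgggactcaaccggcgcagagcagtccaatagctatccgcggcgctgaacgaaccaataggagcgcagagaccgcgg
Mcm3: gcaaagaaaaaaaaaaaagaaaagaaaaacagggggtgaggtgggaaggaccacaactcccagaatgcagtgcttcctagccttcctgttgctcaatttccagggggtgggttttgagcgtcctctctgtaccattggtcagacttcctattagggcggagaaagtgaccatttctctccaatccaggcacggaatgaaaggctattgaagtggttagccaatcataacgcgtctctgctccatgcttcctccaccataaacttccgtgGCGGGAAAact
Rfc3: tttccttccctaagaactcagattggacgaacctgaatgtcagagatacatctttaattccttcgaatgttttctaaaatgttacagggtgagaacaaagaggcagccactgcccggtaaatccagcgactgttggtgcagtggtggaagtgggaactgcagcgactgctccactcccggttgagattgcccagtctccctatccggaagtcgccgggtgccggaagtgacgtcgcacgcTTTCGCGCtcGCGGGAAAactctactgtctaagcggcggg
Gins3: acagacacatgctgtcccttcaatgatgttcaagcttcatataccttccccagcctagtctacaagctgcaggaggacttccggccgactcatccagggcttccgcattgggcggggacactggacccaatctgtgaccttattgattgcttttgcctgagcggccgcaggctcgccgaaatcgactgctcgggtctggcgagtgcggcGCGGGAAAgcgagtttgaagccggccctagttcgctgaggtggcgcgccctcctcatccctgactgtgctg
Dbf4: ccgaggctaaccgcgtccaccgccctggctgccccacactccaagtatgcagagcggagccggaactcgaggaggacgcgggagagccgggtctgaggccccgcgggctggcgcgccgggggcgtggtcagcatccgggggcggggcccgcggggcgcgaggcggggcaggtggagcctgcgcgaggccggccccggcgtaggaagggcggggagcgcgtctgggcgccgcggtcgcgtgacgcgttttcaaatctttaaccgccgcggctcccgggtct
Tk1: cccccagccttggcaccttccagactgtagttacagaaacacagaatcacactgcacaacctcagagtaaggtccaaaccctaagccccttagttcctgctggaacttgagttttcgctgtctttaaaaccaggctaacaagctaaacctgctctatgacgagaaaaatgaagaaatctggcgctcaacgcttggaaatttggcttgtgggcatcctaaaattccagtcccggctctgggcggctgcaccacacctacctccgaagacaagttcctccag
The Mcm6 stretch holds 3 matches, 2 of which overlap as a palindrome-like pair. Mcm3 has 2 in its window, 1 of them past the end of the printed stretch. The 14 genes with a match had a median line difference of 2.03 in the uninduced pair (range 1.13 to 2.72), and the 24 genes without one had 1.73 (0.31 to 2.77), so the ranges overlapped for most of their width. The same words were in 31.8% of the windows of 37 other replication genes and in 7.14% of those of 14 mitosis genes. The cell cycle homology words TTTGAA and TTCGAA showed the opposite order, with 22.2% of member windows, 78.6% of mitosis windows and 19.2% of all windows, or 7.91% of the GC-rich ones. CCAAT was in 53.3% of member windows and 37.4% of all windows, or 32.4% of the GC-rich ones, and the Sp1-type word GGGCGG in 64.4% and 35.7%, or in 76.3% of the GC-rich ones. The Hey-type E-box words CACGTG and CACGCG were in 17.8% of member windows and 15.4% of all windows, or 29.3% of the GC-rich ones. Member windows ranged from 38.7% to 74.7% GC, whereas the GC-rich ones began at the members' median of 58%. These are unlike sets, and the share of member windows above that median was not counted for any word. A match is a word in a sequence and shows no binding.

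**Figure D3:**
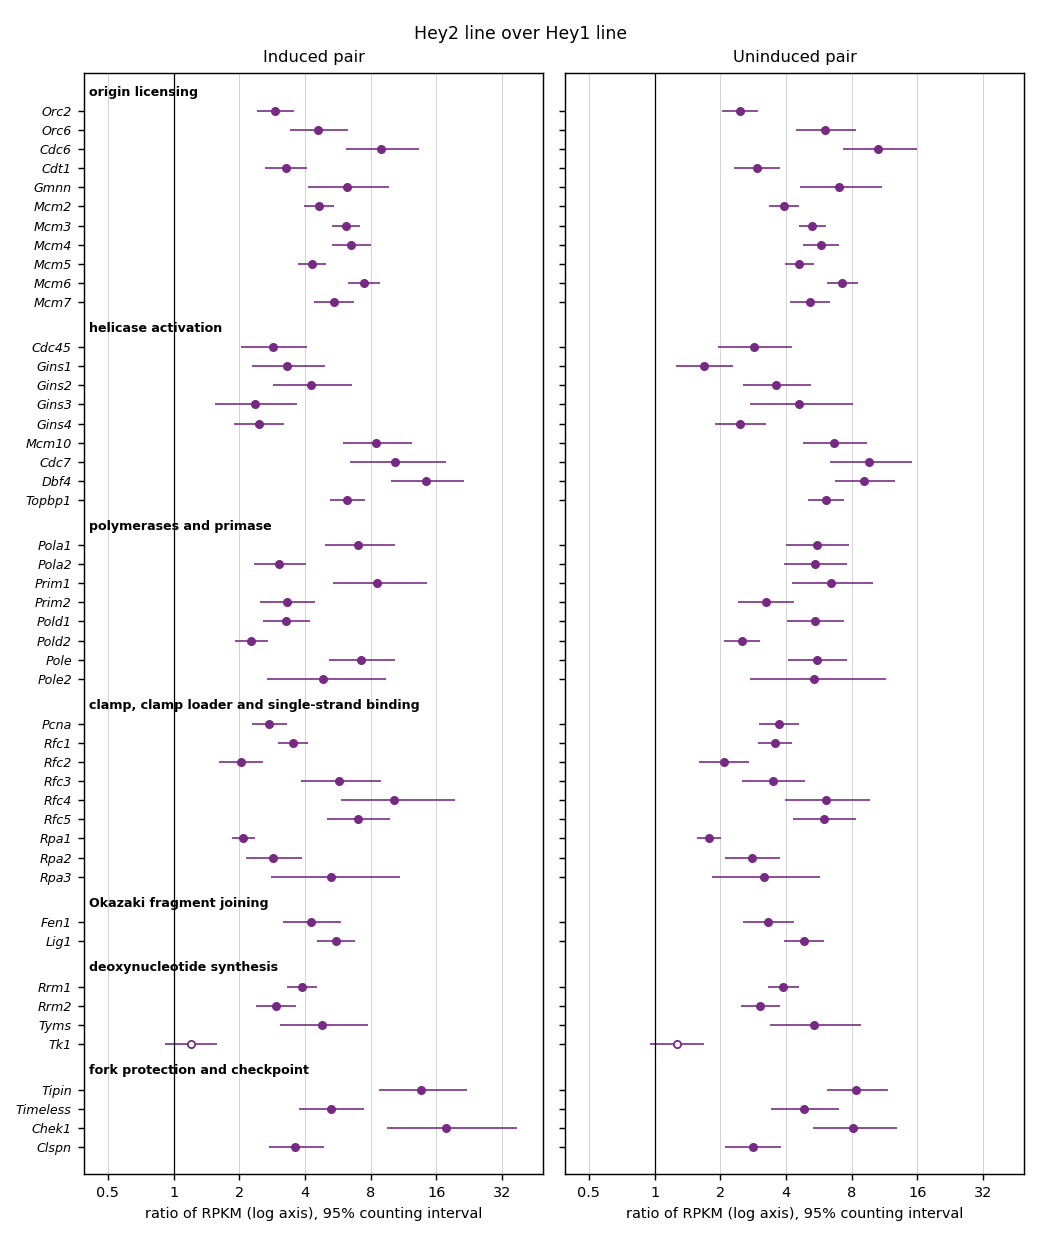
Ratio of RPKM, Hey2 line over Hey1 line (log axis), for the 47 genes in the induced pair (left) and the uninduced pair (right), with 95% counting intervals. Filled points have an interval off 1. All points but Tk1 are filled and lie to the right of 1, and Chek1, Tipin, Dbf4, Cdc7 and Rfc4 lie farthest right in the induced pair.

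All 11 origin licensing genes reached 2-fold in both pairs on the log2(RPKM + 1) scale, with a median ratio of 5.43 in the induced and 5.29 in the uninduced pair. Cdc6 is an ATPase that loads the ring together with the origin recognition complex and Cdt1. It stood at 7.81 RPKM in induced and 9.47 RPKM in uninduced Hey2-line cells, against 0.879 RPKM in induced and 0.891 RPKM in uninduced Hey1-line cells. It was 8.88-fold (interval 6.16 to 13.3) in the induced pair and 10.6-fold (interval 7.304 to 15.97) in the uninduced pair, the largest uninduced ratio of the 47. Mcm6 of the helicase ring stood at 55.3 RPKM in induced and 61.6 RPKM in uninduced Hey2-line cells, against 7.45 RPKM in induced and 8.48 RPKM in uninduced Hey1-line cells, which was 7.43-fold (interval 6.32 to 8.79) in the induced pair and 7.27-fold (interval 6.203 to 8.56) in the uninduced pair. Orc2, a subunit of the origin recognition complex, had the smallest licensing difference. Its levels were 14.6 RPKM in induced and 15.7 RPKM in uninduced Hey2-line cells, against 4.99 RPKM in induced and 6.37 RPKM in uninduced Hey1-line cells, or 2.91-fold (interval 2.41 to 3.54) in the induced pair and 2.47-fold (interval 2.04 to 2.99) in the uninduced pair.

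Among the 6 ring subunits Mcm3 was the highest and Mcm4 the lowest in every library, at 60.95 RPKM in induced and 62.1 RPKM in uninduced Hey2-line cells, against 9.89 RPKM in induced and 11.8 RPKM in uninduced Hey1-line cells for Mcm3. For Mcm4 the values were 26.4 RPKM in induced and 28.5 RPKM in uninduced Hey2-line cells, against 4.05 RPKM in induced and 4.93 RPKM in uninduced Hey1-line cells. The highest was 2.31 and 2.18 times the lowest in induced and uninduced Hey2-line cells, and 2.44 and 2.38 times in induced and uninduced Hey1-line cells, so the spread within the ring was similar at both levels. Geminin (Gmnn), the inhibitor of Cdt1, was at 22.1 RPKM in induced and 26.2 RPKM in uninduced Hey2-line cells, against 3.55 RPKM in induced and 3.73 RPKM in uninduced Hey1-line cells. Cdt1 itself was at 20.1 RPKM in induced and 18.2 RPKM in uninduced Hey2-line cells, against 6.15 RPKM in induced and 6.17 RPKM in uninduced Hey1-line cells. Per length, the inhibitor stood above its target in uninduced Hey2-line cells and below it in the Hey1 line. In induced Hey2-line cells the interval of their ratio held 1. The ratio of geminin to Cdt1 was 1.099 (0.933 to 1.29) in induced and 1.44 (1.16 to 1.78) in uninduced Hey2-line cells, against 0.577 (0.3599 to 0.896) in induced and 0.606 (0.3804 to 0.934) in uninduced Hey1-line cells, with counting intervals in parentheses. The intervals of the lines did not overlap in either pair. In cycling cells Cdt1 protein accumulates in G1 and geminin in S and G2, as background.

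The 9 helicase activation genes were more mixed. In both pairs 8 of 9 reached 2-fold on that scale, and the genes that missed it belonged to the GINS complex, which joins Cdc45 and the ring into the working helicase: Gins3 in the induced pair and Gins1 in the uninduced pair. Cdc7, the kinase that fires origins, stood at 7.35 RPKM in induced and 10.01 RPKM in uninduced Hey2-line cells, against 0.712 RPKM in induced and 1.04 RPKM in uninduced Hey1-line cells. It was 10.3-fold (interval 6.401 to 17.7) in the induced pair and 9.603-fold (interval 6.36 to 15.1) in the uninduced pair. Its activator Dbf4 stood at 23.1 RPKM in induced and 23.3 RPKM in uninduced Hey2-line cells, against 1.61 RPKM in induced and 2.55 RPKM in uninduced Hey1-line cells, 14.4-fold (interval 9.97 to 21.5) in the induced pair and 9.12-fold (interval 6.704 to 12.7) in the uninduced pair. Kinase and activator thus had some of the largest ratios of the list, and Dbf4 was above Cdc7 in all 4 libraries.

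Within GINS, Gins4 was highest and Gins3 lowest in every library. Gins1 stood at 11.8 RPKM in induced and 14.3 RPKM in uninduced Hey2-line cells, against 3.55 RPKM in induced and 8.47 RPKM in uninduced Hey1-line cells. Its line ratio was 3.32-fold (interval 2.28 to 4.96) in the induced pair and 1.69-fold (interval 1.251 to 2.29) in the uninduced pair. Its intervals in the 2 pairs barely overlapped. Gins3 stood at 3.92 RPKM in induced and 4.903 RPKM in uninduced Hey2-line cells, against 1.66 RPKM in induced and 1.06 RPKM in uninduced Hey1-line cells, on only 30 and 19 reads in induced and uninduced Hey1-line cells. Gins2 stood at 15.9 RPKM in induced and 20.6 RPKM in uninduced Hey2-line cells, against 3.73 RPKM in induced and 5.73 RPKM in uninduced Hey1-line cells.

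The 8 polymerase and primase genes all reached 2-fold in both pairs, with a median ratio of 4.07 in the induced and 5.42 in the uninduced pair. The primase subunit Prim1 stood at 14.2 RPKM in induced and 15.9 RPKM in uninduced Hey2-line cells, against 1.65 RPKM in induced and 2.47 RPKM in uninduced Hey1-line cells, and was 8.56-fold (interval 5.36 to 14.5) in the induced pair and 6.43-fold (interval 4.26 to 10.03) in the uninduced pair. Its partner Prim2 stood at 13.4 RPKM in induced and 14.6 RPKM in uninduced Hey2-line cells, against 4.06 RPKM in induced and 4.54 RPKM in uninduced Hey1-line cells. Both primase subunits were about level in the Hey2 line, whereas Prim2 exceeded Prim1 in the Hey1 line. The ratio of Prim1 to Prim2 was 1.06 (0.881 to 1.27) in induced and 1.08 (0.8596 to 1.37) in uninduced Hey2-line cells, against 0.407 (0.229 to 0.692) in induced and 0.544 (0.336 to 0.86) in uninduced Hey1-line cells. Pold1, the catalytic subunit of polymerase delta, stood at 10.4 RPKM in induced and 11.99 RPKM in uninduced Hey2-line cells, against 3.19 RPKM in induced and 2.21 RPKM in uninduced Hey1-line cells. That was 3.27-fold (interval 2.57 to 4.21) in the induced pair and 5.42-fold (interval 4.04 to 7.39) in the uninduced pair. Its second subunit Pold2 had the smallest difference of the role, at 31.6 RPKM in induced and 36.1 RPKM in uninduced Hey2-line cells, against 13.9 RPKM in induced and 14.3 RPKM in uninduced Hey1-line cells, or 2.27-fold (interval 1.903 to 2.71) in the induced pair and 2.51-fold (interval 2.08 to 3.04) in the uninduced pair. The second subunit of polymerase alpha, Pola2, stood at 9.498 RPKM in induced and 11.99 RPKM in uninduced Hey2-line cells, against 3.11 RPKM in induced and 2.21 RPKM in uninduced Hey1-line cells. The catalytic subunit of polymerase epsilon, Pole, was the lowest of the 3 catalytic subunits in every library, at 5.26 RPKM in induced and 5.59 RPKM in uninduced Hey2-line cells, against 0.729 RPKM in induced and 1.005 RPKM in uninduced Hey1-line cells.

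Of the clamp, clamp loader and single-strand binding genes, 8 of 9 reached 2-fold in the induced pair and 7 of 9 in the uninduced pair. Pcna, the sliding clamp, was among the 3 highest genes of the list in every library, at 41.5 RPKM in induced and 50.5 RPKM in uninduced Hey2-line cells, against 15.1 RPKM in induced and 13.6 RPKM in uninduced Hey1-line cells, which is 2.74-fold (interval 2.27 to 3.32) in the induced pair and 3.71-fold (interval 3.02 to 4.58) in the uninduced pair. The 5 subunits of replication factor C, which opens the clamp and sets it on DNA, were close to each other in the Hey2 line and apart in the Hey1 line. The highest was 1.51 and 1.19 times the lowest in induced and uninduced Hey2-line cells, against 6.16 and 3.02 times in induced and uninduced Hey1-line cells. Rfc4 was the lowest in the Hey1 line, on 13 reads in induced and 26 in uninduced cells, and stood at 14.6 RPKM in induced and 17.6 RPKM in uninduced Hey2-line cells, against 1.43 RPKM in induced and 2.89 RPKM in uninduced Hey1-line cells. It was 10.2-fold (interval 5.84 to 19.6) in the induced pair and 6.09-fold (interval 3.96 to 9.69) in the uninduced pair. Rfc2 was the highest there and stood at 17.8 RPKM in induced and 18.1 RPKM in uninduced Hey2-line cells, against 8.78 RPKM in induced and 8.72 RPKM in uninduced Hey1-line cells, only 2.03-fold (interval 1.61 to 2.58) in the induced pair and 2.08-fold (interval 1.603 to 2.698) in the uninduced pair. Rfc5 stood at 22.01 RPKM in induced and 20.9 RPKM in uninduced Hey2-line cells, against 3.16 RPKM in induced and 3.52 RPKM in uninduced Hey1-line cells, and Rfc3 at 17.1 RPKM in induced and 19.8 RPKM in uninduced Hey2-line cells, against 2.96 RPKM in induced and 5.67 RPKM in uninduced Hey1-line cells. Rpa1, the large subunit of the single-strand binding complex, was the highest of all 47 genes in both Hey1-line libraries. It stood at 33.05 RPKM in induced and 30.96 RPKM in uninduced Hey2-line cells, against 15.9 RPKM in induced and 17.4 RPKM in uninduced Hey1-line cells, or 2.08-fold (interval 1.85 to 2.35) in the induced pair and 1.77-fold (interval 1.56 to 2.02) in the uninduced pair. Rpa1 was thus among the least different of the list, while Rpa3, at 12.1 RPKM in induced and 12.8 RPKM in uninduced Hey2-line cells, against 2.299 RPKM in induced and 4.02 RPKM in uninduced Hey1-line cells, had wide intervals on 11 and 19 Hey1-line reads.

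Both genes of Okazaki fragment joining reached 2-fold in each pair. The ligase Lig1 stood at 23.8 RPKM in induced and 21.6 RPKM in uninduced Hey2-line cells, against 4.28 RPKM in induced and 4.46 RPKM in uninduced Hey1-line cells. The flap nuclease Fen1 stood at 11.2 RPKM in induced and 13.6 RPKM in uninduced Hey2-line cells, against 2.61 RPKM in induced and 4.09 RPKM in uninduced Hey1-line cells, or 4.28-fold (interval 3.17 to 5.88) in the induced pair and 3.32-fold (interval 2.55 to 4.37) in the uninduced pair.

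Among the 4 deoxynucleotide synthesis genes 3 reached 2-fold in each pair. Thymidylate synthase, Tyms, makes dTMP from dUMP and had the lowest level of the 47 genes in both Hey2-line libraries. It stood at 3.78 RPKM in induced and 4.303 RPKM in uninduced Hey2-line cells, against 0.7904 RPKM in induced and 0.801 RPKM in uninduced Hey1-line cells, or 4.78-fold (interval 3.07 to 7.76) in the induced pair and 5.37-fold (interval 3.38 to 8.88) in the uninduced pair. Tk1 makes the same product from salvaged thymidine and had the smallest ratio of the 47 in both pairs. It stood at 10.1 RPKM in induced and 12.7 RPKM in uninduced Hey2-line cells, against 8.47 RPKM in induced and 10.1 RPKM in uninduced Hey1-line cells, and its ratio was 1.197-fold (interval 0.911 to 1.58) in the induced pair and 1.26-fold (interval 0.948 to 1.68) in the uninduced pair. Both intervals held 1, and a median ratio scaling put the ratio at 0.954 in the induced and 1.07 in the uninduced pair. The ratio of Tk1 to Tyms was 2.69 (2.12 to 3.395) in induced and 2.95 (2.21 to 3.95) in uninduced Hey2-line cells, against 10.7 (6.71 to 17.8) in induced and 12.6 (7.93 to 20.7) in uninduced Hey1-line cells. The proportion of these 2 transcripts differed between the lines beyond counting error. Other salvage kinases were mixed. The deoxycytidine kinase Dck was 2.63-fold (interval 1.94 to 3.61) higher in the induced and 2.93-fold (interval 2.135 to 4.06) higher in the uninduced pair. The deoxyguanosine kinase Dguok was 2.28-fold (interval 1.57 to 3.38) and 1.68-fold (interval 1.14 to 2.49) higher. The thymidine kinase Tk2 was at 1.16-fold (interval 0.878 to 1.54) in the induced and 1.02-fold (interval 0.729 to 1.43) in the uninduced pair, so both its intervals held 1, like those of Tk1. Tk1 overlaps the coding gene Afmid in the RefSeq annotation. The large and small subunits of ribonucleotide reductase, Rrm1 and Rrm2, were near each other in level in each library. Rrm1 stood at 23.5 RPKM in induced and 26.6 RPKM in uninduced Hey2-line cells, against 6.07 RPKM in induced and 6.86 RPKM in uninduced Hey1-line cells, or 3.87-fold (interval 3.303 to 4.56) in the induced pair and 3.88-fold (interval 3.31 to 4.57) in the uninduced pair. Rrm2 stood at 20.3 RPKM in induced and 25.3 RPKM in uninduced Hey2-line cells, against 6.91 RPKM in induced and 8.31 RPKM in uninduced Hey1-line cells, or 2.94-fold (interval 2.39 to 3.65) in the induced pair and 3.04-fold (interval 2.48 to 3.75) in the uninduced pair.

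The 4 fork protection and checkpoint genes had the highest median ratio of the 7 roles, 9.42 in the induced and 6.48 in the uninduced pair. Chek1, the checkpoint kinase that slows replication when forks stall, stood at 6.95 RPKM in induced and 8.09 RPKM in uninduced Hey2-line cells, against 0.393 RPKM in induced and 0.995 RPKM in uninduced Hey1-line cells. It was 17.7-fold (interval 9.47 to 37.4) in the induced pair and 8.13-fold (interval 5.31 to 12.9) in the uninduced pair, on 10 and 25 reads in induced and uninduced Hey1-line cells. Tipin, which binds Timeless at the fork, stood at 31.4 RPKM in induced and 43.2 RPKM in uninduced Hey2-line cells, against 2.31 RPKM in induced and 5.13 RPKM in uninduced Hey1-line cells, or 13.6-fold (interval 8.77 to 22.2) in the induced pair and 8.42-fold (interval 6.16 to 11.8) in the uninduced pair. Timeless stood at 5.14 RPKM in induced and 4.93 RPKM in uninduced Hey2-line cells, against 0.981 RPKM in induced and 1.02 RPKM in uninduced Hey1-line cells. Tipin exceeded its partner in all 4 libraries, with a ratio of 6.12 (5.24 to 7.14) in induced and 8.78 (7.203 to 10.7) in uninduced Hey2-line cells, and 2.36 (1.32 to 4.09) in induced and 5.04 (3.23 to 7.87) in uninduced Hey1-line cells. Claspin (Clspn), the adaptor through which Chek1 is activated, stood at 5.71 RPKM in induced and 5.27 RPKM in uninduced Hey2-line cells, against 1.58 RPKM in induced and 1.87 RPKM in uninduced Hey1-line cells. It was the least different of the role, at 3.61-fold (interval 2.73 to 4.87) in the induced and 2.82-fold (interval 2.105 to 3.801) in the uninduced pair.

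Ratios within a library were computed for 9 pairs of partners. Geminin to Cdt1 and Tk1 to Tyms had intervals that were apart between the lines in both pairs of libraries. For 4 pairs (Tipin to Timeless, Rfc4 to Rfc1, Pola2 to Pola1 and Prim1 to Prim2) the intervals were apart in the induced pair alone. Pola2 to Pola1 ran the other way from the rest of these 4, at 1.597 (1.36 to 1.88) in induced and 1.825 (1.49 to 2.23) in uninduced Hey2-line cells, against 3.67 (2.39 to 5.72) in induced and 1.86 (1.22 to 2.85) in uninduced Hey1-line cells. For 3 pairs the intervals overlapped in both. Dbf4 to Cdc7 was at 3.15 (2.715 to 3.66) in induced and 2.33 (1.94 to 2.79) in uninduced Hey2-line cells, against 2.26 (1.22 to 4.302) in induced and 2.45 (1.49 to 4.12) in uninduced Hey1-line cells. Pole2 to Pole was at 0.941 (0.737 to 1.19) in induced and 0.845 (0.602 to 1.16) in uninduced Hey2-line cells, against 1.402 (0.687 to 2.68) in induced and 0.873 (0.411 to 1.69) in uninduced Hey1-line cells. Rrm2 to Rrm1 was at 0.865 (0.773 to 0.967) in induced and 0.9497 (0.827 to 1.09) in uninduced Hey2-line cells, against 1.14 (0.892 to 1.45) in induced and 1.21 (0.966 to 1.51) in uninduced Hey1-line cells. Overlapping intervals do not show that a proportion was equal.

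Differences with induction were far smaller than those between the lines. In the Hey2 line, 37 of 47 lay lower after induction and 10 higher, where 50.6% of all genes lay lower and 49.4% higher. No member differed by 2-fold on the log2(RPKM + 1) scale, and only 0.0364% of all genes were lower and 0.0091% higher by that size. The count was the same with both other scalings tried. The median difference was -0.15, against 0.00 over all genes. The counting interval lay below 1 for 11 of 47 members (23.4%), beside 6.63% of all genes, and above 1 for none, beside 7.99% of all genes. Those 11 came from all 7 roles. They were Orc6, Cdc6 and Mcm6 of licensing, Gins2 and Cdc7 of helicase activation, Pola2, Pcna, Fen1, both ribonucleotide reductase subunits and Tipin. An interval is narrower for a gene with many reads, so the count was repeated with a minimum number of reads. Among genes with at least 100 reads in both Hey2-line libraries, an alternative chosen after the data were seen, the count was 11 of 42 members, beside 9.23% of all genes. A minimum does not match the read numbers of members to those of all genes, so the part of depth was not tested.

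The sizes were small. Tipin was 1.38-fold (interval 1.18 to 1.601) lower in induced Hey2-line cells, at 31.4 RPKM in induced and 43.2 RPKM in uninduced Hey2-line cells. Cdc7 was 1.36-fold (interval 1.12 to 1.65) lower, at 7.35 RPKM in induced and 10.01 RPKM in uninduced Hey2-line cells. Orc6, a further origin recognition subunit, was 1.31-fold (interval 1.11 to 1.554) lower, at 19.2 RPKM in induced and 25.2 RPKM in uninduced Hey2-line cells. The smallest of the 11 were Mcm6, 1.11-fold (interval 1.03 to 1.21) lower, and Rrm1, 1.13-fold (interval 1.02 to 1.254) lower. Rrm2 was 1.24-fold (interval 1.07 to 1.44) lower and Pcna 1.22-fold (interval 1.06 to 1.39) lower. Counted instead by a size of 5 to 4 on the log2(RPKM + 1) scale, 4 members were lower and none higher, beside 5.9% and 5.62% of all genes, so by size the count of lower members was near the background.

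**Figure D4:**
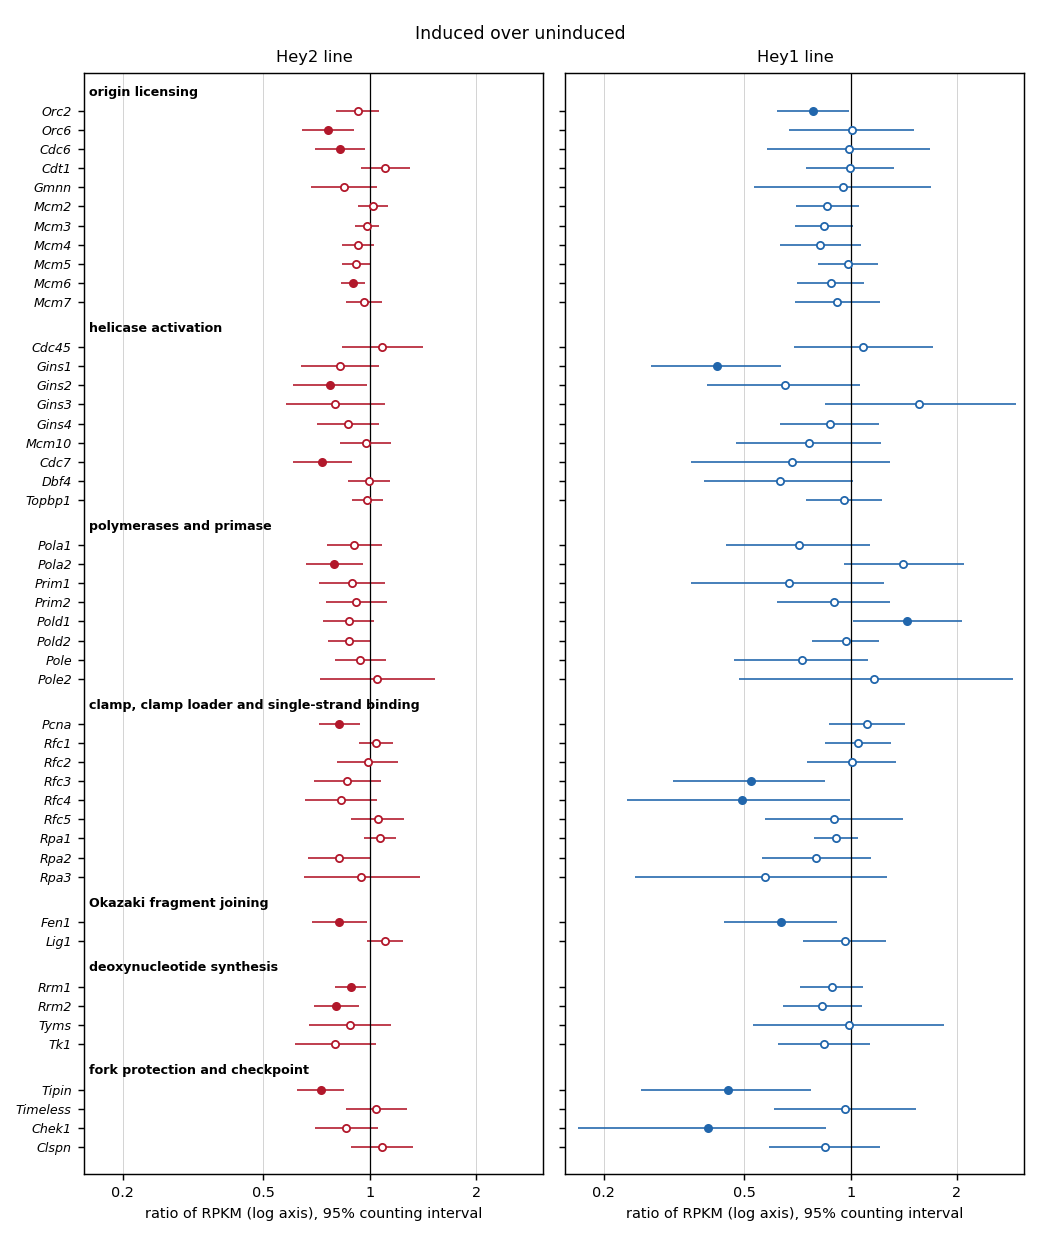
Ratio of RPKM, induced over uninduced (log axis), for the 47 genes in the Hey2 line (left) and the Hey1 line (right), with 95% counting intervals. Filled points have an interval off 1. In the Hey2 line 11 genes are filled, all below 1, and in the Hey1 line 7 are filled below 1 and Pold1 above it, with wider intervals.

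In the Hey1 line, 38 of 47 lay lower after induction and 9 higher, where 61.6% of all genes lay lower and 38.4% higher. That count depended on the scaling. It was 29 lower and 18 higher with a median ratio scaling, beside 47.5% of all genes lower, and 30 and 17 with an upper quartile scaling, beside 51.8%. The members' median difference was -0.155, against -0.061 over all genes. With a median ratio scaling it was -0.086, against 0.013 over all genes. The interval lay below 1 for 7 of 47 (14.9%), which is near the 13.4% of all genes, and above 1 for 1 gene, beside 4.85% of all genes. The 7 were Orc2, Gins1, Rfc3, Rfc4, Fen1, Tipin and Chek1. Only Gins1 passed 2-fold on the log2(RPKM + 1) scale, as 0.109% of all genes did in that direction. No member passed it upwards, beside 0.0273% of all genes. At a size of 5 to 4, 10 members were lower and 3 higher, beside 12.6% and 3.28% of all genes. Gins1 stood at 3.55 RPKM in induced and 8.47 RPKM in uninduced Hey1-line cells, 2.38-fold (interval 1.58 to 3.67) lower, on 34 against 80 reads. Chek1 was 2.53-fold (interval 1.18 to 5.91) lower on 10 against 25 reads, and Tipin 2.22-fold (interval 1.298 to 3.92) lower on 21 against 46 reads. Rfc4 was 2.03-fold (interval 1.005 to 4.296) lower, Rfc3 1.91-fold (interval 1.18 to 3.17) lower and Fen1 1.57-fold (interval 1.09 to 2.28) lower. Orc2, with the most reads of the 7, was 1.28-fold (interval 1.01 to 1.61) lower. The 1 gene above was Pold1, 1.445-fold (interval 1.02 to 2.07) higher, at 3.19 RPKM in induced and 2.21 RPKM in uninduced Hey1-line cells.

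Fen1 and Tipin had intervals below 1 in both lines. The share of all genes with such intervals in both was not counted, so this overlap of 2 has no background. By sign, 31 of 47 members lay lower in both lines, beside 31.8% of all genes. That count holds for the deposited scaling. In the Hey1 line 9 members changed sign with a median ratio scaling and 8 with an upper quartile scaling. The count in both lines was not repeated with these. The lines share no library, so the inductions are separate measurements. In limma, with the 2 lines standing in for replicates and 1 residual degree of freedom, 2 of 47 members fell and none rose at an adjusted p of 0.05, beside 0.455% of all genes that fell and 0.0637% that rose. At an unadjusted p under 0.05, 9 were lower and none higher, beside 6% and 1.64% of all genes. Tipin fell by 0.67 on the log2(RPKM + 1) scale (SE 0.14, limma adjusted p = 0.00395), lower in both inductions. Gins1 fell by 0.66 (SE 0.15, limma adjusted p = 0.0105), also lower in both, though in the Hey2 line its interval held 1. Neither call held in all alternatives. With an upper quartile scaling the limma adjusted p was 0.577 for Tipin and 0.706 for Gins1, and without the line term it was 1.0 for both.

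The inductions differed from each other for 6 members by the ratio of their ratios, Hey2 line over Hey1 line. For Chek1 this was 2.18 (interval 1.02 to 4.66) and for Gins1 1.96 (interval 1.23 to 3.15), both lower after induction in the Hey1 line by more than in the Hey2 line. Such an interval above 1 was found for 12.7% of all genes. Below 1 were Gins3 at 0.513 (interval 0.267 to 0.985), Pola2 at 0.563 (interval 0.372 to 0.853), Pold1 at 0.603 (interval 0.414 to 0.879) and Pcna at 0.739 (interval 0.562 to 0.971), beside 4.15% of all genes. These 4 ratios lay above 1 in the Hey1 line and below 1 in the Hey2 line, although in the Hey1 line only the interval of Pold1 cleared 1. Pola2 stood at 9.498 RPKM in induced and 11.99 RPKM in uninduced Hey2-line cells and at 3.11 RPKM in induced and 2.21 RPKM in uninduced Hey1-line cells, and Pola1, the catalytic subunit of the same polymerase, lay lower after induction in both lines, with ratios of 0.905 (0.758 to 1.08) in the Hey2 line and 0.714 (0.445 to 1.13) in the Hey1 line.

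Gene length moved with the induction differences. Across the 47 genes the difference and log2 length had Pearson's r of 0.38 and Spearman's rho of 0.42 in the Hey2 line, and 0.37 and 0.24 in the Hey1 line, against r of 0.21 and 0.07 over all genes in the Hey2 and Hey1 line. Of the 10 members under 1500 bases, 10 lay lower in the Hey2 line with a median difference of -0.26, and 9 lay lower in the Hey1 line with a median of -0.56. Over all 1942 genes of that length 62.9% lay lower in the Hey2 line and 63.6% in the Hey1 line, and the medians were -0.07 and -0.09. Of the 7 members with an interval below 1 in the Hey1 line, 4 (Gins1, Rfc3, Rfc4 and Tipin) were this short, that is 4 of the 10 short members, beside 14.7% of all genes of that length. The trend of all genes on log2 length was slight, with a slope of 0.044 in the Hey2 line and 0.0173 in the Hey1 line. With it removed, the members' median was -0.15 in the Hey2 line and -0.16 in the Hey1 line, close to the values before. Slopes this small could hardly move the median, so the part of length in the members' differences was not tested.

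**Figure D5:**
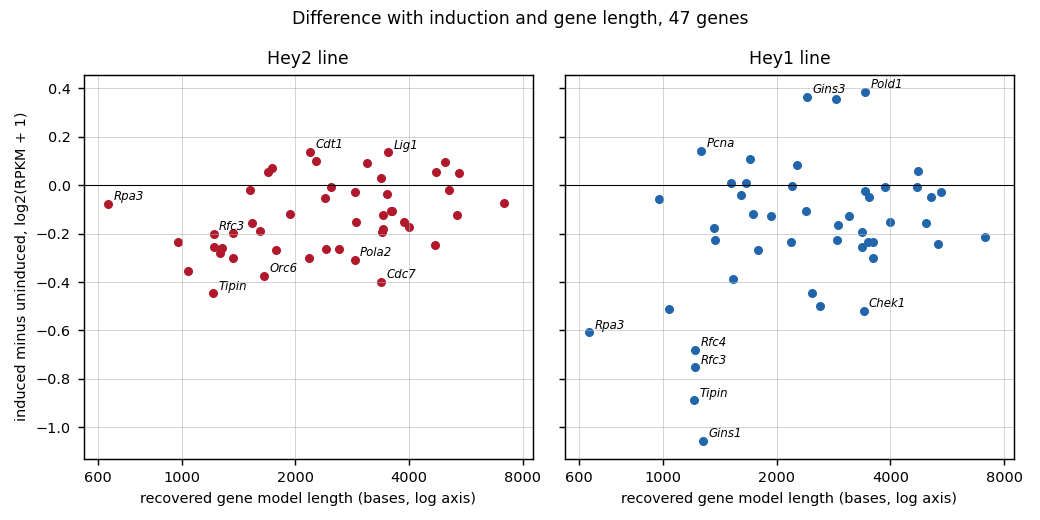
Difference with induction in log2(RPKM + 1) against recovered gene model length (bases, log axis) for the 47 genes in the Hey2 line (left) and the Hey1 line (right). In the Hey1 line Gins1, Tipin, Rfc3, Rfc4 and Rpa3, all under 1500 bases, have the lowest values.

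Other genes of the same processes came from lists drawn up by process, also with earlier results of these data known. Of 42 other replication genes compared, 39 lay higher in the Hey2 line in the induced and 40 in the uninduced pair. By size, 30 reached 2-fold in the induced and 29 in the uninduced pair, and none was lower by that size. In the uninduced pair the largest ratios were those of Hells, a chromatin remodeller needed for DNA methylation, 24.98-fold (interval 17.7 to 36.4) higher, of its partner Cdca7, 15.04-fold (interval 10.3 to 22.8) higher, and of Top2a, the topoisomerase that untangles sister chromatids, 12.2-fold (interval 10.8 to 13.9) higher. Pold4 and Rnaseh2c had the lowest ratios, 0.741 and 0.867. Dscc1 was blank in both Hey1-line libraries and stood at 3.53 RPKM in induced and 3.06 RPKM in uninduced Hey2-line cells. All 17 mitosis genes were at least 2-fold higher in both pairs, with a median ratio of 10.1 in the induced and 6.61 in the uninduced pair.

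Of 33 other nucleotide synthesis genes 21 were at least 2-fold higher and 2 lower in each pair. The 2 lower ones in the uninduced pair were the mitochondrial folate enzymes Mthfd2 and Shmt2. Mthfd2 stood at 9.03 RPKM in induced and 9.16 RPKM in uninduced Hey2-line cells, against 46.5 RPKM in induced and 58.6 RPKM in uninduced Hey1-line cells. Shmt2 stood at 10.8 and 9.41 RPKM in induced and uninduced Hey2-line cells, against 23.4 and 22.1 RPKM in induced and uninduced Hey1-line cells. The cytosolic counterpart Shmt1 was 4.42-fold (interval 3.53 to 5.56) higher in the Hey2 line in the uninduced pair. Of 24 genes of G1/S control 8 were at least 2-fold higher and 3 lower in the uninduced pair. The largest ratios were those of the E2F factors E2f5 and E2f7 and of Ccne1 (cyclin E1), at 7.39-fold, 7.03-fold and 6.98-fold, while the cyclin-dependent kinase inhibitor Cdkn1a and the cyclin Ccnd2 were the lowest. The E2F genes did not move as a class. In that pair E2f4, E2f3 and E2f1 had ratios of 2.71, 2.645 and 1.72. E2f8 was at 1.38 (interval 0.982 to 1.94), E2f6 was lower at 0.647 (interval 0.507 to 0.820), and E2f2 was too low to be compared. Cdkn1a stood at 25.4 RPKM in induced and 25.2 RPKM in uninduced Hey2-line cells, against 132 RPKM in induced and 127 RPKM in uninduced Hey1-line cells.

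With induction, the median difference over all genes was -0.002 in the Hey2 line and -0.061 in the Hey1 line, and 50.6% and 61.6% lay lower. The median difference of the other replication genes was -0.09 in the Hey2 line and -0.12 in the Hey1 line, and 31 of 42 lay lower in each. For mitosis genes the medians were 0.01 in the Hey2 line and -0.36 in the Hey1 line, where 16 of 17 lay lower. Pluripotency markers had medians of 0.18 in the Hey2 line and -0.17 in the Hey1 line, where 11 of 11 lay lower, and fibroblast markers 0.32 in the Hey2 line and -0.21 in the Hey1 line. These marker differences stand beside the small differences of the members in each line, and their part in them was not tested.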

How the data were processed

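RNA was sequenced in 4 libraries, 1 per combination of line and induction, and 8 chromatin samples were not analysed here. The authors deposited RPKM for 23427 genes, per the file headers, with blank cells and no zeros, and beside them a signed fold change per line, a score that was used only for a check. The build mm9 and the tools Bowtie 1.0, MACS 1.4.1 and DESeq, without its version, stand in the notes, per the submitters' processing notes. Neither the read counter nor the annotation is named.

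From the deposited RPKM, whole reads were recovered for 99.87% of 11692 genes with 4 values, at a whole-base gene length and a tolerance of 3e-06 reads. Genes with 4 values and a mean of at least 1 RPKM were compared (10991). Differences are of log2(RPKM + 1). Folds are RPKM ratios with exact conditional binomial 95% intervals, those of the ratio of 2 inductions use a normal approximation on the log scale, and single RPKM have exact Poisson intervals. PCR copies are not independent molecules, so all of them cover counting error only. limma 3.58.1 (R 4.3.3) used log2(RPKM + 1), a variance trend, line and induction as terms and Benjamini-Hochberg adjustment over all genes compared, two-sided. The share of all genes under the same rule stands beside the first count of members by each rule. The recovery, intervals and fits were tested on simulated data. There the reads were recovered exactly for 96.7% of 1500 genes. NumPy 2.4.6, pandas 2.3.3, SciPy 1.17.1 and Matplotlib 3.10.9 ran under Python 3.11.15.

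The members, lists, roles and motifs were chosen with earlier results of these data known. Full values are given for the 2 members of each role with the largest and the 1 with the smallest uninduced line difference, for those with an induction interval off 1, and for pairs of partner proteins. Genes outside the members come from lists, by the largest differences in each direction. Dscc1, Shmt1, Cdca7, Dck, Dguok, Tk2 and the E2F genes other than E2f5 were named after their values were seen. Alternatives were other pseudocounts, filters, scalings, interval levels and sizes, and a minimum of 100 reads, chosen after seeing the data. Gene names and promoter windows come from RefSeq, build GRCm38.p6, whose coordinates belong to another build than the reads.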

Additional observations from a re-analysis of the deposited data

Results flagged for a closer look

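For 6 members the induction ratio differed between the lines, by an interval of the Hey2-line ratio over the Hey1-line ratio that did not hold 1. That was 2 of 47 members above 1, beside 12.7% of all genes, and 4 of 47 below 1, beside 4.15% of all genes. The intervals cover counting error only. The difference was 2.18 for Chek1 and 1.96 for Gins1, both above 1. Chek1 rests on 10 reads in induced and 25 reads in uninduced Hey1-line cells, and Gins1 on 34 and 80. It was 0.513 for Gins3, 0.563 for Pola2, 0.603 for Pold1 and 0.739 for Pcna, all below 1. The 4 read numbers behind Gins3 were 98 in induced and 68 in uninduced Hey2-line cells, against 30 in induced and 19 in uninduced Hey1-line cells. Pcna had at least 100 reads in every library.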

How the results depend on the processing

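The line difference kept its direction and its count within 1.5 times under every scaling, filter and pseudocount tried, with 20 of 47 members in the uninduced and 18 in the induced pair left at 4-fold. Under median ratio scaling Tk1 alone changed sign, in the induced pair. The induction counts were less stable. Shares of all genes under the same rule stand in parentheses. In the Hey2 line 6 members lay lower with a 99% interval (3.05%), 4 at a size of 5 to 4 (5.9%) and 3 at that size with the length trend removed (5.19%). In the Hey1 line 3 lay lower with a 99% interval (7.46%) and 1 of 16 with at least 100 reads (16.9%). Higher members there numbered 2 with median ratio scaling (10.3%), 0 with a 99% interval (2.35%), 3 at 5 to 4 with the length trend (3.28%) or without it (3.52%), and 0 with at least 100 reads (7.58%). For the difference between the inductions, the count above 1 was 1 with median ratio (8.41%) or upper quartile scaling (9.64%), a mean of at least 5 RPKM (15.7%) or a 99% interval (6.65%), and 0 with at least 100 reads (18.9%). The count below 1 was 2 with a 99% interval (1.54%) and 1 with at least 100 reads (5.92%). The limma count of members that fell with induction was 1 with a pseudocount of 0.1 RPKM (0.118%) or median ratio scaling (0.1%), and 0 with upper quartile scaling or without the line term (0% each). The limma adjusted p of Gins1 was 0.0677 with the smaller pseudocount and 0.104 with median ratio scaling. In all, 75 of the counts recomputed with another setting were within 1.5 times of the reported one and 19 were not, beside 2 and 4 for the minimum of 100 reads. The 75 include counts that were 0 and stayed 0, such as members lower in the Hey2 line, which had little room to change. The causes of the changed counts were not tested. The line term of the limma fit pairs the induced and the uninduced library of a line. No paired analysis by replicate number was possible, because the labels carry none and each group is 1 library. At the lowest depth, 10 reads for Chek1, a ratio is known only within a wide interval.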
